A study of Mus musculus with 4 samples.

Results

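Ms4a4b, Ms4a4c, Ms4a4d, Ms4a6b, Ms4a6c and Ms4a6d are neighbouring mouse genes for small membrane proteins, and they were taken by their symbols from the 23990 gene symbols of the expression tables. RNA was measured in 4 libraries of effector CD4 cells (CD44+CD4) of wild type mice, C57BL/6 in the labels and C57BL/6J in the methods. The cells of both groups came from animals in which experimental autoimmune encephalomyelitis (EAE), the mouse model of multiple sclerosis, had been induced with the myelin peptide MOG, complete Freund's adjuvant and pertussis toxin. At disease onset, spinal cords (labelled CNS) gave 2 libraries, and draining lymph node cells (labelled dLN), which were pooled, gave 2 more. The methods describe stimulation of the sorted cells with PMA and ionomycin, whereas the labels name no stimulation and call the cells freshly sorted. The age of the mice is not given in the sources used here.

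The MS4A family encodes proteins that pass the cell membrane several times, often as partners of other receptors. Its best known members are CD20 (Ms4a1), which marks B cells, and the beta chain of the high-affinity IgE receptor (Ms4a2) of mast cells and basophils. Ms4a4b is expressed by T cells, where its product associates with the co-stimulatory receptor GITR and modulates activation. Ms4a6b is expressed by T cells as well, whereas Ms4a6c and Ms4a6d are known mostly from monocytes and macrophages.

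Expression was given as FPKM, which divides the fragments of a transcript by its length and by the total of its library, and was summed over the transcripts of a gene. The steps of low values put the depth between 18.5 M and 22.0 M fragments per library. The 8 T-cell markers checked, among them Cd3e and Cd4, were present in all 4 libraries, with a summed level of 3056 and 3119 FPKM in CNS and of 1284 and 1189 FPKM in dLN. CNS replicate 2 stood apart in markers of other cells. Its 17 macrophage and microglia markers summed to 308 FPKM, against 32.8 FPKM in CNS replicate 1 and 4.68 and 4.34 FPKM in the dLN libraries, and its 4 neutrophil markers summed to 210 FPKM against 0.767 FPKM in CNS replicate 1 and 0 in dLN. The libraries also differed in sex-linked RNA, as Xist reached 26.6 and 22.3 FPKM in dLN but no more than 0.0026 FPKM in CNS, so tissue and sex cannot be told apart. Nothing says that the 2 libraries of a tissue came from separate mice, so the p-values measure only the spread between these libraries.

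The 6 genes lie within 197 kb of chromosome 19 in mm10 (11407661 to 11604804), in the order Ms4a4c, Ms4a4b, Ms4a6c, Ms4a6b, Ms4a4d and Ms4a6d. Ms4a6d is on the minus strand in GENCODE M21 and the other 5 are on the plus strand. RefSeq promoter windows of GRCm38.p6, from 250 bases before to 50 after the start, were found for these 5. The promoters of Ms4a4b and Ms4a4c are shown because both genes differed strongly between the tissues at very different levels, and capitals mark runs of at least 12 bases that the partner also holds. The window of Ms4a4b is chr19:11443308-11443607 and that of Ms4a4c chr19:11407411-11407710, both on the plus strand.
Ms4a4b: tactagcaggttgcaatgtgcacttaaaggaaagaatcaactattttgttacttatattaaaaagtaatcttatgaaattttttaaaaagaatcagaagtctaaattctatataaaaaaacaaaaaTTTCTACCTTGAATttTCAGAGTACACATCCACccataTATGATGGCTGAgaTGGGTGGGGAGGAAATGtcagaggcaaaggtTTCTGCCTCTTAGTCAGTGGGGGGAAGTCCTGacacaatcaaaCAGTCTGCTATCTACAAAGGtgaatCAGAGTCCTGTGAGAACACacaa
Ms4a4c: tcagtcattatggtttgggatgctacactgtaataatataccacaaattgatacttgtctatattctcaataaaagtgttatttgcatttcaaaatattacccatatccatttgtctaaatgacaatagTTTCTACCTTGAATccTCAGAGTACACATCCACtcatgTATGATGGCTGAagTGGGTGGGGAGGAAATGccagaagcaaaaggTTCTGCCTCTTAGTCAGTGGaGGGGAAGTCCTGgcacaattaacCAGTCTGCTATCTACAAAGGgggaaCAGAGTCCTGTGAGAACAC
The promoters of Ms4a6b (chr19:11518309-11518608) and Ms4a6c (chr19:11469118-11469417), also on the plus strand, are shown in the same way, since these were the tested members with the smaller differences between the tissues. Any link between likeness of promoters and these differences was not tested.
Ms4a6b: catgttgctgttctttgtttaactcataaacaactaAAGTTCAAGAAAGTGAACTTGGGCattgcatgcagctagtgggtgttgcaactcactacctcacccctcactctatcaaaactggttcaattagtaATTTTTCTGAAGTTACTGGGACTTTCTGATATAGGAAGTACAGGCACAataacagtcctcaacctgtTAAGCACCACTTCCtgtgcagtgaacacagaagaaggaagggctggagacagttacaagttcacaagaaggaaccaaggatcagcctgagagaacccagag
Ms4a6c: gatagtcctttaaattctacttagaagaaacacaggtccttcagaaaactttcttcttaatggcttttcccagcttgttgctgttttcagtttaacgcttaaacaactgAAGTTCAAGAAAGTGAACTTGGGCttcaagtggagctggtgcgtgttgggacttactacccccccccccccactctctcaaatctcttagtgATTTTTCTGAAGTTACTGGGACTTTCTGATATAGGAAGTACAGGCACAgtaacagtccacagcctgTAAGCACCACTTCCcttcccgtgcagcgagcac
Ms4a4b and Ms4a4c shared 80.9% of 282 aligned bases, and their longest common run had 20 bases. Ms4a6b and Ms4a6c shared 85.9% of 220 aligned bases, with a longest run of 48 bases. The other 8 pairs among the 5 promoters lay between 60.1% and 66.8%. Bases opposite a gap were not counted, and promoters of unrelated genes were not aligned for comparison. The promoters were also searched on both strands for the core of the interferon-stimulated response element (GAAA, any 2 bases, GAAA), the gamma-activated site (TTCNNNGAA), a T-box site (AGGTGTGA) and the PU.1 core (GAGGAAGT). None of the 5 windows held any of these letters, which 3.44%, 8.30%, 1.28% and 3.20% of all 32851 windows of this length held.

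All 6 genes were read at higher levels in both CNS libraries than in both dLN libraries. With limma on log2(FPKM + 1), all 5 members whose mean reached 1 FPKM in CNS or dLN rose in CNS (Benjamini-Hochberg adjusted p under 0.05 over 10634 genes). Of all genes tested, 37.8% were called higher in CNS and 74.9% were called in either direction, and in 45.7% both CNS libraries lay above both dLN libraries, so the direction of a single member is common in this comparison. Ms4a4c and Ms4a6d reached the minimum through CNS alone, so their direction follows in part from the filter. Ms4a4b, Ms4a6b and Ms4a6c, which were at 1 FPKM or more in every library, had log2 ratios of 3.18, 1.75 and 1.21, beside a median of 0.05 for all genes tested. A log2 ratio of at least 3 with a call was met by 2.19% of the genes tested, and Ms4a4c, Ms4a6d and Ms4a4b were among them. In bulk RNA, more cells that express a gene and more RNA per cell cannot be told apart.

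**Figure D1:**
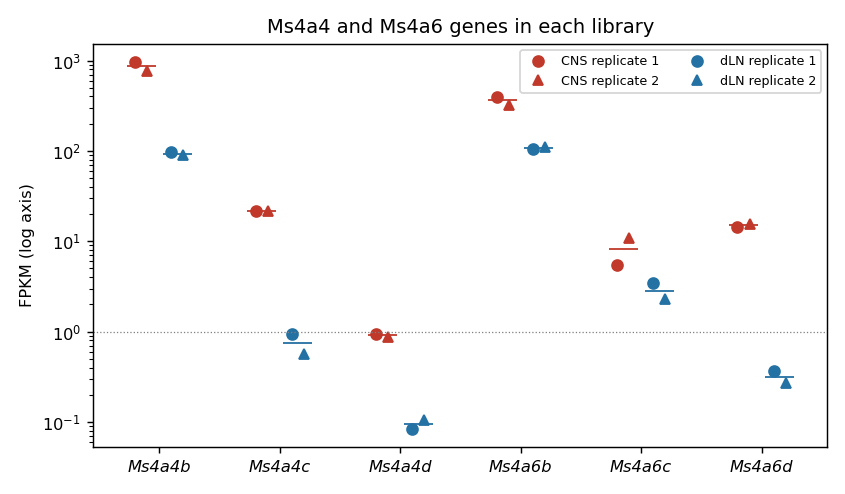
FPKM on a log axis of the 6 genes in CNS (red) and dLN (blue), with circles for replicate 1, triangles for replicate 2, short lines for the mean of each tissue and a dotted line at 1 FPKM. For each gene both CNS libraries lie above both dLN libraries, and the levels run from under 0.12 FPKM for Ms4a4d in dLN to 956 FPKM for Ms4a4b in CNS.

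Ms4a4b (Entrez gene 60361, 11443558 to 11463548), the T-cell member that associates with GITR, was the most abundant of the 6 in CNS. It was at 956 FPKM in CNS replicate 1, 769 FPKM in CNS replicate 2, 96.0 FPKM in dLN replicate 1 and 91.0 FPKM in dLN replicate 2. The libraries of one tissue lay close together and the tissues were far apart. Its mean in CNS was 863 ± 132 FPKM (SD, n = 2). That in dLN was 93.5 ± 3.56 FPKM (SD, n = 2), a 9.22-fold difference. The log2 ratio was 3.18 (standard error, SE, 0.12, adjusted p = 9.00e-05 in limma), which ranked 188 among the genes tested. Among all symbols, Ms4a4b ranked 109 and 128 by level in the CNS libraries and 818 and 858 in the dLN libraries.

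Ms4a6b (Entrez gene 69774, 11518559 to 11530403) was the other abundant member. Its level was 399 FPKM and 325 FPKM in CNS replicates 1 and 2, and 104 FPKM and 110 FPKM in dLN replicates 1 and 2. It rose by 3.39-fold between the means and with a log2 ratio of 1.75 (SE 0.12, adjusted p = 0.000262 in limma). The order of the means of these genes was thus not the same in both tissues. In CNS the FPKM of Ms4a4b was 2.39 and 2.37 times that of Ms4a6b, and in dLN it was 0.927 and 0.828 times. These ratios do not overlap between the tissues, and their difference was not tested. GITR itself (Tnfrsf18) was at 195 and 247 FPKM in CNS and at 85.9 and 88.1 FPKM in dLN, with a log2 ratio of 1.33 (SE 0.13, adjusted p = 0.000703 in limma), whereas the gene of its ligand, Tnfsf18, was listed at 0 in all 4 libraries.

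Ms4a4c (Entrez gene 64380, 11407661 to 11427246) was read at 21.8 and 21.7 FPKM in CNS and at 0.931 and 0.559 FPKM in dLN. The CNS values were almost equal, and the dLN values rest on about 26 and 19 fragments. The means differed 29.2-fold, and the log2 ratio was 3.71 (SE 0.14, adjusted p = 8.95e-05 in limma), rank 90 among the genes tested. This scale, with 1 FPKM added, understates the change of a gene this low in dLN. Ms4a6d (Entrez gene 68774, 11586606 to 11604804) behaved much like it. It was at 14.5 and 15.5 FPKM in CNS and at 0.365 and 0.267 FPKM in dLN, where it rests on about 8 and 7 fragments. The log2 ratio of Ms4a6d was 3.61 (SE 0.11, adjusted p = 8.12e-05 in limma), rank 108, and the means differed 47.6-fold.

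Ms4a4b and Ms4a4c have similar sequences, so reads could be split between them. Of the stretches of 50 bases in the GENCODE transcript of Ms4a4c, 8.0% also occur in Ms4a4b. The FPKM of Ms4a4b was 43.9 and 35.4 times that of Ms4a4c in CNS, and 103 and 163 times in dLN. How the reads of shared stretches were assigned was not tested. Of the stretches of Ms4a6d, 2.92% occur in Ms4a6b or another gene. Of those of Ms4a6b, 8.55% occur in Ms4a6c or Ms4a6d.

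**Figure D2:**
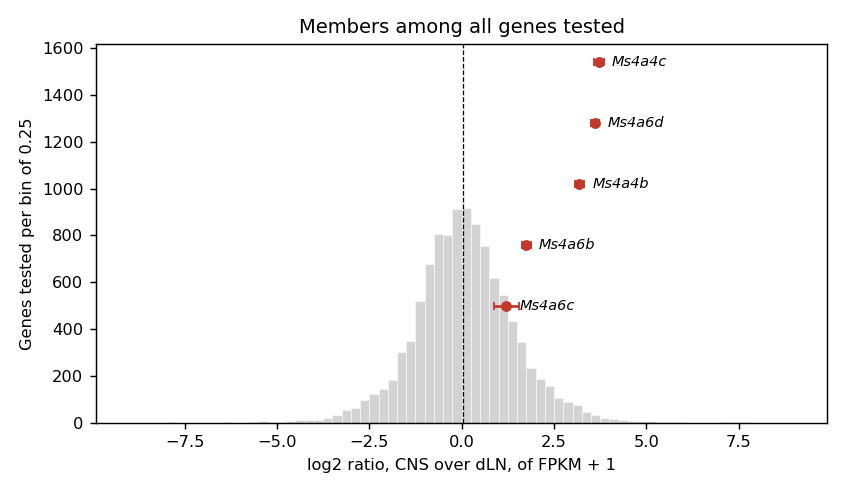
Log2 ratios (CNS over dLN, of FPKM + 1) of the 10634 genes tested, as a histogram in bins of 0.25 with the median dashed, and of the 5 tested members as points with standard errors; the height of a point has no meaning. Ms4a4b, Ms4a4c and Ms4a6d lie between 3.18 and 3.71 in the right tail, with other genes further right, Ms4a6b at 1.75 and Ms4a6c at 1.21.

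Ms4a6c (Entrez gene 73656, 11469368 to 11482196) was the member with the smallest and least certain difference. It was at 5.47 FPKM in CNS replicate 1, 10.97 FPKM in CNS replicate 2, 3.41 FPKM in dLN replicate 1 and 2.27 FPKM in dLN replicate 2. The CNS libraries differed from each other about as much as the lower of them differed from dLN. The log2 ratio was 1.21 (SE 0.33, adjusted p = 0.0234 in limma). Without CNS replicate 2 it was 0.77 (limma adjusted p = 0.0838), and without dLN replicate 2 it was 0.99 (limma adjusted p = 0.114), so the call rests on these libraries. CNS replicate 2 was the library with the high macrophage, microglia and neutrophil markers, and the part of such cells in the Ms4a6c level was not tested.

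Ms4a6c is the one member with 2 transcripts in the tables. The longer one, of 1843 bases, was at 2.21 and 6.95 FPKM in CNS and at 0.932 and 0.960 FPKM in dLN. The shorter one, of 696 bases, ends early, at 11472736, and was at 3.25 and 4.01 FPKM in CNS and at 2.48 and 1.31 FPKM in dLN. The longer transcript made up 63.4% of the Ms4a6c level in CNS replicate 2, and 40.5%, 27.3% and 42.3% in CNS replicate 1 and dLN replicates 1 and 2. The excess of CNS replicate 2 over replicate 1 thus lay mainly in the longer transcript. GENCODE places a transcript of the opposite strand, BE692007, over Ms4a6c, and 55.4% of the 50-base stretches of Ms4a6c also occur in it. Without strand, reads of the stretches shared by Ms4a6c and BE692007 cannot be told apart, and BE692007 has no level of its own in the tables. The methods name TruSeq RNA V2 kits and mention no strand. Whether the counting used strand is not given in the sources used here.

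Ms4a4d (Entrez gene 66607, 11536849 to 11558466) was close to the limit of detection and was not tested, since its mean in CNS was 0.909 FPKM. It was at 0.946 and 0.871 FPKM in CNS, about 26 and 24 fragments, and at 0.0845 and 0.106 FPKM in dLN, about 2 and 3 fragments. Summed over the libraries of a tissue, these fragments gave a ratio of 9.44 between CNS and dLN, with an exact 95% interval of 3.79 to 30.3 that covers counting error only.

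Per kilobase, the levels in CNS ran in the order Ms4a4b, Ms4a6b, Ms4a4c, Ms4a6d, Ms4a6c and Ms4a4d, and in dLN in the order Ms4a6b, Ms4a4b, Ms4a6c, Ms4a4c, Ms4a6d and Ms4a4d. No neighbours in either order had overlapping values, but the gap between Ms4a6b and Ms4a4b in dLN was small (104 and 110 FPKM against 96.0 and 91.0 FPKM). The summed level of the 6 genes was 1398 and 1143 FPKM in CNS and 204 FPKM in both dLN libraries. Ms4a4b made up 68.4% and 67.3% of that sum in CNS and 47.0% and 44.6% in dLN, and Ms4a6b 28.6% and 28.4% in CNS and 50.7% and 53.9% in dLN. The share of Ms4a6c was lower in CNS (0.391% and 0.959%) than in dLN (1.67% and 1.11%), although its level was higher.

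Ms4a6c and the markers of macrophages and microglia were higher in CNS replicate 2 than in CNS replicate 1, while the other 5 genes differed less between these libraries. The 17 macrophage and microglia markers were higher in replicate 2 by a median of 1.75 on the log2(FPKM + 1) scale, and 16 of 17 were higher there. On the same scale, replicate 2 differed from replicate 1 by -0.31 for Ms4a4b, -0.30 for Ms4a6b, -0.0028 for Ms4a4c, -0.0569 for Ms4a4d and 0.09 for Ms4a6d, and by 0.89 for Ms4a6c. The T-cell markers had a median difference of 0.0030 and the neutrophil markers one of 4.54. Against dLN, 9 of the 14 macrophage and microglia markers tested rose and none was called lower, and 9 of the 17 were listed at 0 in both dLN libraries. Of these 14, 13 passed the minimum through CNS alone. The 4 neutrophil markers gave adjusted p-values of 0.129 to 0.221 in limma, from S100a9 to Camp, so none was called. Csf1r, the receptor that macrophages and microglia need for survival, was at 0.668 and 5.26 FPKM in CNS and was not called (limma adjusted p = 0.060). Lyz2 (lysozyme) was at 3.22 and 92.1 FPKM in CNS and was called higher (limma adjusted p = 0.0452). The 5 B-cell markers summed to 1.22 and 1.73 FPKM in CNS and to 0.412 and 0.258 FPKM in dLN. Pax5 was listed at 0 in all 4 libraries, and the 1 marker tested, Cd79b of the B-cell receptor, was called higher, at 1.14 and 1.47 FPKM in CNS and 0.214 and 0.179 FPKM in dLN (log2 ratio 0.94, limma adjusted p = 0.00462). The 5 CD8 T-cell and NK-cell markers summed to 6.42 and 9.76 FPKM in CNS and to 3.50 and 3.40 FPKM in dLN. Klrb1c, the NK1.1 antigen, was called higher and, like Cd79b, passed the minimum through CNS alone, at 2.53 and 3.22 FPKM in CNS against 0.0442 and 0 FPKM in dLN (limma adjusted p = 0.000432). Cd8b1 was at 3.66 and 4.56 FPKM in CNS and 3.38 and 3.38 FPKM in dLN (log2 ratio 0.22, limma adjusted p = 0.181), while Cd8a, the other chain of CD8, was at 0.130 and 0.834 FPKM in CNS and not tested. The 6 markers of neurons and glia summed to 49.9 and 49.6 FPKM in CNS and to 55.7 and 58.0 FPKM in dLN. Most of this was Mbp, at 48.6 and 44.5 FPKM in CNS and at 55.5 and 57.7 FPKM in dLN. Mbp was called lower in CNS (limma adjusted p = 0.0361). Gfap and Snap25 passed the minimum through CNS alone. Gfap was called higher, at 0.655 and 2.51 FPKM in CNS and listed at 0 in dLN (limma adjusted p = 0.0312). Snap25 was not called (limma adjusted p = 0.0822). The part of these other cell types in the levels of the 6 Ms4a4 and Ms4a6 genes was not tested.

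**Figure D3:**
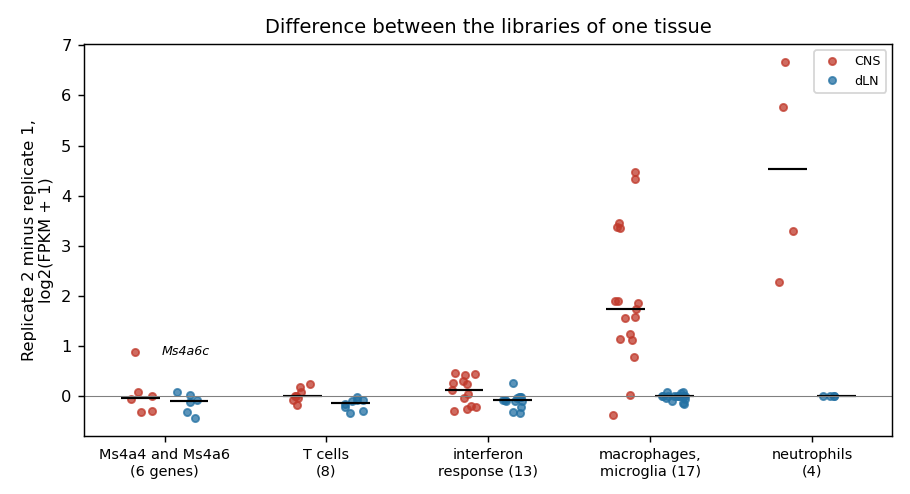
Replicate 2 minus replicate 1 on the log2(FPKM + 1) scale, within CNS (red) and within dLN (blue), for the 6 genes and 4 marker lists; each point is a gene and each black line a median. The macrophage and neutrophil markers are higher in CNS replicate 2 (medians 1.75 and 4.54), Ms4a6c is higher by 0.89, and the other 5 genes lie between -0.31 and 0.09.

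The T-cell markers themselves were mostly higher in CNS, with 6 of 8 called higher, 1 lower and a median log2 ratio of 1.70. Cd3g and Cd4 had log2 ratios of 2.83 and 2.79, Cd44, the antigen used in the sort, was lower (-0.56, limma adjusted p = 0.00337), and the adaptor Lat gave 0.08 (limma adjusted p = 0.441). The log2 ratio of Ms4a4b (3.18) was above the highest of these 8 markers, that of Ms4a6b (1.75) near their median and that of Ms4a6c (1.21) below it. Ms4a4c and Ms4a6d were above the markers too, but passed the minimum through CNS alone, whereas all 8 markers had a dLN mean of at least 1 FPKM. The part of T-cell content in these ratios was not tested. Interferon response genes were higher as well. Of 13, 12 passed the minimum, 5 of them through CNS alone, and all 12 were called higher. The 7 whose mean was at least 1 FPKM in dLN as well had a median log2 ratio of 2.83. Ifit3, an antiviral protein gene, was at 49.1 and 39.9 FPKM in CNS and at 0.194 and 0.189 FPKM in dLN, and Irf7, a transcription factor of the interferon response, had a log2 ratio of 4.82.

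The other Ms4a genes of the tables were almost silent. The tables hold 10 of them, and 5 (Ms4a5, Ms4a10, Ms4a13, Ms4a15 and Ms4a18) were listed at 0 in all 4 libraries. GENCODE M21 also places Ms4a4a, Ms4a12 and Ms4a14 on this stretch of chromosome 19, but the tables hold no gene of these symbols. Ms4a1, which encodes CD20, Ms4a3 and the macrophage gene Ms4a7 were each at no more than about 1 fragment in any library. Ms4a2 was at 0.189 and 0.144 FPKM in CNS and at 0.0481 and 0 FPKM in dLN. Ms4a8a was at 2.02 FPKM in CNS replicate 2, about 39 fragments, at 0.0513 FPKM (1 fragment) in CNS replicate 1 and listed at 0 in dLN. It was the 1 gene of these 10 to be tested and was not called (log2 ratio 0.83, standard error 0.52, limma adjusted p = 0.199). The related Tmem176a and Tmem176b, on chromosome 6, were both called higher. Tmem176b was at 123 and 144 FPKM in CNS and at 6.44 and 3.71 FPKM in the dLN libraries, giving a log2 ratio of 4.50 (SE 0.24, adjusted p = 0.000137 in limma), and Tmem176a gave 4.16.

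Along the chromosome, higher levels in CNS were not limited to genes named Ms4a. The outermost Ms4a genes span 679 kb and enclose 5 genes with other symbols in the tables, of which 3 were listed at 0 throughout. AW112010, a long noncoding RNA in GENCODE, was at 1098 and 984 FPKM in CNS and at 61.2 and 34.4 FPKM in the dLN libraries, giving a log2 ratio of 4.47 (SE 0.28, adjusted p = 0.000193 in limma). Gm8369, a protein-coding gene between Ms4a6c and Ms4a6b, was at 27.7 and 23.1 FPKM in CNS and at 2.14 and 2.40 FPKM in the dLN libraries, giving a log2 ratio of 3.01 (SE 0.12, adjusted p = 9.15e-05 in limma). Just outside, Ccdc86, a nucleolar protein gene, went the other way, at 3.15 and 4.44 FPKM in CNS and 38.0 and 42.7 FPKM in dLN (log2 ratio -3.12, limma adjusted p = 0.000127). Oosp2, on the other side, was listed at 0 in all libraries.

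**Figure D4:**
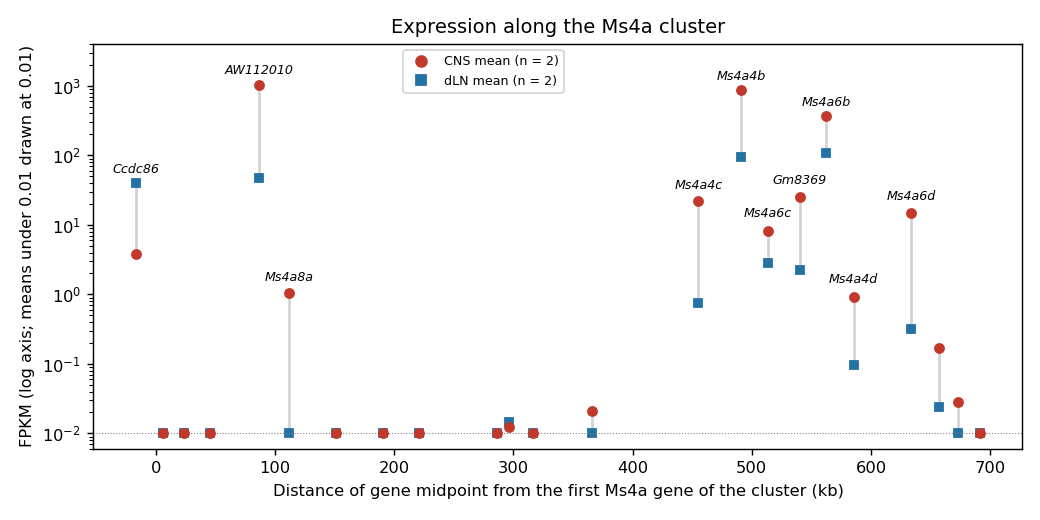
Mean FPKM (log axis, n = 2 per tissue, means under 0.01 drawn at 0.01) of each gene of the tables in the Ms4a cluster and its nearest neighbour on either side, against distance in kb from the first Ms4a gene; red circles are CNS, blue squares dLN and grey lines join them. The 6 Ms4a4 and Ms4a6 genes and Gm8369 at the right and AW112010 at the left have the CNS mean above the dLN mean, Ms4a8a reaches its CNS mean through replicate 2 alone, and Ccdc86 outside the cluster lies the other way.

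Genes with the most similar pattern were named by the smallest Euclidean distance between centred log2(FPKM + 1) values over the 4 libraries, among genes that reached a mean of 10 FPKM in CNS or dLN. For Ms4a4b they were Cd96, Gab3 and Mndal. Cd96, a receptor of T cells and NK cells, was at 126 and 104 FPKM in CNS and at 11.6 and 11.97 FPKM in dLN, a distance of 0.0877. Those of Ms4a6b were Tcp11l2, Rb1 and Cox20, at distances of 0.0815 to 0.117. Those of Ms4a4c were Icosl, Hid1 and Fam189b, of which Icosl, the ligand of the co-stimulatory receptor ICOS, was at 17.03 and 18.7 FPKM in CNS and at 0.632 and 0.247 FPKM in dLN. Ms4a6d was closest to Evl, a regulator of actin filaments, which was at 39.6 and 41.4 FPKM in CNS and at 2.58 and 2.42 FPKM in dLN, followed by Igflr1 and Cd97. Akr1b3 and Eml2 were among the genes nearest to Ms4a6c, at larger distances of 0.271 and 0.301. Over 4 libraries in 2 groups, such a likeness reflects mostly the size of the difference between the tissues.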

How the data were processed

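RNA of sorted effector CD4 cells was sequenced from TruSeq RNA V2 libraries on a HiSeq instrument, 2 from CNS and 2 from dLN. After trimming and mapping, the authors deposited the FPKM values as 1 table for each tissue, with rows for 33819 RefSeq transcripts of mm10. The aligner and the program for FPKM are not given in the sources used here. The header of the CNS table holds both library names in one cell, and its 2 value columns were read in the order of these names. Positions are printed counting from 1, whereas transcript starts in the tables begin at 0.

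FPKM was summed by symbol, leaving out 565 transcripts without one. The 10634 genes whose mean reached 1 FPKM in CNS or dLN were tested with limma 3.58.1 in R 4.3.3 (lmFit, eBayes with trend, two-sided) on log2(FPKM + 1). The model held tissue alone, and p-values were adjusted by Benjamini-Hochberg with a threshold of 0.05. The methods of the study name no test for RNA-seq genes. The fit and the depth estimate were tested on simulated data. Numbers of fragments are estimates from FPKM, transcript length and depth, where low values fell within 0.05 of whole fragments in 90.3% to 94.1% of cases (10% by chance). Other steps used Python 3.11.15 (pandas 2.3.3, numpy 2.4.6, matplotlib 3.10.9, scipy 1.17.1). The genes named are the 6 members, the other MS4A family genes, genes of the cluster and on its flanks, GITR and its ligand, interferon and cell type lists and the 3 most similar genes per member. A few of these are not reported here. The members and lists were chosen with earlier results of these data known, and the alignment of promoters was chosen after the values and sequences were seen. Alternatives covered the pseudocount, filters, scalings, the highest transcript, the trend, a replicate block and leaving out each library.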

Additional observations from a re-analysis of the deposited data

How the results depend on the processing

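The number of genes called was 7968 of 10634 tested and lay between 6596 and 8477 over the alternatives, within a factor of 1.5 of the main count. The number tested changed with the filter, so these counts are not like shares. Without a filter 8477 of 16782 genes were called, and with at least 1 FPKM in every library 6711 of 8860. Of 63 refits of single members, 59 gave the main direction and call, and none reversed. The 4 others concern Ms4a6c, whose log2 ratio was 1.21 without a filter (limma adjusted p = 0.0747), 1.04 with the highest transcript (limma adjusted p = 0.0505), 0.77 without CNS replicate 2 (limma adjusted p = 0.0838) and 0.99 without dLN replicate 2 (limma adjusted p = 0.114). The adjusted p of Ms4a6c in limma ranged from 0.0084 to 0.114, and the cause of the lost calls was not tested. Over all settings the log2 ratio lay between 2.99 and 3.34 for Ms4a4b, 3.56 and 4.73 for Ms4a4c, 1.55 and 1.89 for Ms4a6b, and 3.49 and 5.19 for Ms4a6d. With at least 1 FPKM required in every library, 3 members were called, since Ms4a4c and Ms4a6d were no longer tested. Leaving out a library gave 4 or 5 members called and 6596 to 7363 genes. Without a filter Ms4a4d was tested too (log2 ratio 0.80, limma adjusted p = 0.0019). The median log2 ratio of all genes was 0.05, and -0.13 with the same sum and 0.16 with the same upper quartile per library. The replicate differences of the tissues had a correlation of 0.0933 across genes, which alone cannot show whether libraries were paired. Libraries of the same number also differed in sex-linked RNA, as Ddx3y was at 12.7 and 11.2 FPKM in CNS and listed at 0 in dLN. The methods name no pairing, and the replicate numbers were not read as pairs. A replicate block gave 7828 genes called, with the 5 members tested among them. The low levels of Ms4a4d, and of Ms4a4c and Ms4a6d in dLN, are limited by depth.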
